A study of Mus musculus with 36 samples.

Results

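The acyl-CoA thioesterase (Acot) family was followed across 6 groups of mouse liver arrays that differ in genotype and in the time of day. The members were 10 genes, Acot1, Acot2, Acot3, Acot4, Acot5, Acot6, Acot7, Acot8, Acot12 and Acot13, taken by gene name from the scanner output together with every probe that carries one of those names. They were measured by 16 probes of the 56605 non-control probes on the array, and each gene was represented by its brightest probe among the 23054 genes that could be tested. All 10 genes passed the filter on dim probes, and 2 of the 3 Acot6 probes did not, with signal well above background on 2 and 0 of 36 arrays. Acot3 and Acot5 were selected on these data, by the change of their genotype difference with time, so their values are given as a description and no test of them is reported.

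Acyl-CoA thioesterases cut the thioester bond of an acyl-CoA, which releases the free fatty acid and coenzyme A. Fatty acids are activated to acyl-CoA by synthetases before they are oxidised, elongated or built into lipid, and the thioesterases run the opposite reaction in the cytosol, the mitochondria and the peroxisomes. Acot1 to Acot6 share the alpha/beta-hydrolase fold and lie side by side in the mouse genome, whereas Acot7, Acot8, Acot12 and Acot13 are built on other folds and lie elsewhere. In rodent liver the clustered genes are known to rise with fasting and with activators of PPARalpha, the nuclear receptor that responds to fatty acids, and insulin is high after feeding.

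The livers came from male mice aged 11 weeks, fed a standard diet ad libitum on a 12 h light and 12 h dark cycle, at ZT8 in the light phase, at ZT12 when the lights went off, and at ZT16 in the dark phase. The knockouts (IRLKO, also IRhep-/-) came from mice with the fourth exon of the insulin receptor gene Insr between LoxP sites, crossed with C57BL/6J mice that carry a tamoxifen-inducible Cre under the transthyretin promoter (TTR-CreTam). That promoter is active in hepatocytes, so the other liver cells keep the receptor. The controls are IRLWT (IRhep+/+) mice. Whether the controls carried the Cre or received tamoxifen, and how long before sampling it was given, is not stated in the labels. Each of the 6 groups held 6 mice, 1 array each, spread over 3 wash batches of 11 to 13 arrays. Levels are log2 signal relative to the array's 75th percentile, so a level of 0 is as bright as that percentile and 1 unit is a doubling. Levels of different probes are not compared with each other, since a probe's brightness depends on its sequence.

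The deleted gene was checked first. Its probe (A_55_P2173927) lay between -1.86 and -1.01 in the 18 controls and between -3.95 and -2.94 in the 18 knockouts, with no overlap, and whether that probe lies in the deleted exon is not given in the sources used here. The arrays' 75th percentile was 311 to 525 signal units, 53.7% to 63.1% of the spots were well above background, and no member spot was saturated. All 8 hepatocyte markers were well above background on every array. Knockout ZT8 replicate 3 had the lowest summed hepatocyte marker level of the 36 arrays, 2687 against 3215 to 5100 in the other 5 groups, and the highest stellate cell sum, 106. It was also the lowest knockout ZT8 liver for every member except Acot6, where it was the highest, so values without it stand beside each result it changes. In whole liver, fewer cells of a type and less RNA per cell cannot be told apart.

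Acot2, Acot1, Acot4, Acot3, Acot5 and Acot6 follow each other in that order on chromosome 12. Their probes run from position 85334553 to 85452010 of mm9, the build of the probe positions in the scanner files, all on the plus strand. Acot8 lies on chromosome 2, Acot7 on chromosome 4, and Acot13 and Acot12 on chromosome 13. Because signal shared between paralogs is a concern in such a cluster, the first 30 bases of the 4 probes that measured Acot3 and Acot5 are shown here, 5′ to 3′, as the scanner files give them, in lower case throughout.
Acot3 A_55_P2038347: gtgtacacacacacatatacacacaagcac
Acot3 A_52_P1156957: ttcttttgggatggaattactaccttagtc
Acot5 A_55_P2038362: ggagaagccccagattgtctgctaccccaa
Acot5 A_55_P2040260: cgctggtcctgttcccctgagaattaggat
The Acot3 probes sit at 85400452 to 85400511 and 85401016 to 85401075, and the Acot5 probes at 85416634 to 85416693 and 85416893 to 85416951. The brighter Acot3 probe starts in a run of CA repeats. Over the 113 pairs of member probes of different genes, the longest run of bases in common was 9 of 60, and the highest ungapped identity over at least 40 compared bases was 51.0%. The brighter Acot3 probe shared a run of 21 bases with a probe for Itgam, an integrin of myeloid cells, and no other member probe shared more than 17 with a probe of another gene. These figures compare probes with probes. The transcripts of the paralogs were not used here, so how well each probe binds a neighbour's transcript was not tested.

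Acot1 to Acot5 lie side by side and varied together, as described below, and of these the promoters of Acot3, Acot4 and Acot5 are shown. They come from RefSeq on GRCm38.p6, are shown from 250 bases before to 24 bases after the annotated start, and read 5′ to 3′ on the plus strand. Capitals mark AGGTCA, or TGACCT on the other strand, the half-site that nuclear receptors such as PPARalpha bind as a direct repeat spaced by 1 base.
Acot4 chr12:84038129-84038402: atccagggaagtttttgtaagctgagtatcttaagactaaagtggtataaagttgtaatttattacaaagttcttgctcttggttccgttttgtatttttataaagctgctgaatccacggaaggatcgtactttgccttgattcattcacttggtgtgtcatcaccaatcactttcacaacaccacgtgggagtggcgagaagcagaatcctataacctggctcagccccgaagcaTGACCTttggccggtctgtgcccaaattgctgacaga
Acot3 chr12:84051894-84052167: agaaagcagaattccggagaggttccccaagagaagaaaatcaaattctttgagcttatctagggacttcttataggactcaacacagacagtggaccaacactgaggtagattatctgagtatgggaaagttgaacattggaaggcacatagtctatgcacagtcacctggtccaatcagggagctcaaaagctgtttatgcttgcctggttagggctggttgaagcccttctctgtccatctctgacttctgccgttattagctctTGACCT
Acot5 chr12:84069074-84069347: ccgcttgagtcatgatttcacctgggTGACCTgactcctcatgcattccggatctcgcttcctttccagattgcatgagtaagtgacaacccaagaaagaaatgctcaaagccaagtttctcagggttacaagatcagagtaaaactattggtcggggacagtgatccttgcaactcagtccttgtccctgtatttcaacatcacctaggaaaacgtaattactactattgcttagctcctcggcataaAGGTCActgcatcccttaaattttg
A promoter was matched for 8 members, and those for Acot6 and Acot13 were not matched. Motifs were searched in the promoter sequences as the reference gives them, before they were cut to the bases shown. The half-site AGGTCA, searched on both strands, was present in 4 of the 8 (Acot3, Acot4, Acot5 and Acot12). It was absent from Acot1 and Acot2, whose promoters are not shown, and from Acot7 and Acot8. Among all genes it was in 16.3% of the 32851 promoters, or at least 1 promoter of 18.1% of the 27025 genes. The full repeat AGGTCANAGGTCA was in none of the 8 and in 0.0396% of all promoters (0.0481% of genes). The E-box CACGTG, which the clock factors CLOCK and BMAL1 bind, occurred in Acot4 alone, 66 to 61 bases before the start, and in 7.15% of all promoters (8.09% of genes), with no overlap with the half-site there. Such a match describes letters in these promoter sequences and is not a measured binding site.

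At ZT8 the mitochondrial Acot2 and the peroxisomal Acot4 were higher in the knockouts, whereas Acot7, Acot8 and Acot13 were lower. At ZT12 no tested member of the chromosome 12 cluster was called, and the same trio outside it (Acot7, Acot8 and Acot13) was lower. At ZT16 that trio was again lower and Acot4 had changed sides, now lower in the knockouts. With limma and Benjamini-Hochberg adjustment over all genes, 5 of the 8 tested members differed at ZT8, where 35.4% of all genes did. Of these 2 were higher, against 16.7% of all genes, and 3 were lower, against 18.7%. Which genes were called, and so the count in each direction, depended on knockout ZT8 replicate 3. Without it the ZT8 count was again 5, with Acot1, Acot2, Acot4 and Acot12 higher, Acot8 lower, and Acot7 and Acot13 no longer called. At ZT12 the count was 3 of 8, where 42.2% of all genes were called, and all 3 were lower, against 22.6%. At ZT16 it was 4 of 8 beside 39.9%, and all 4 were lower, against 20.0%. Without knockout ZT8 replicate 3 the ZT16 count was 5, with Acot1 added, also lower. The background is high at each time, and nothing particular to the family is read from these counts. The genotypes did not overlap for 1 of the 8 at ZT8 (Acot2), 3 at ZT12 and 4 at ZT16, the called genes of those times, where 15.5%, 21.3% and 19.2% of all genes did not overlap. The median log2 difference of the 8 was 0.38, -0.19 and -0.55 at ZT8, ZT12 and ZT16, beside 0.01, -0.02 and 0.00 over all genes.

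The change of the genotype effect between ZT8 and ZT16 was called for 3 of the 8, Acot2, Acot4 and Acot7, where 9.75% of all genes were called. All 3 were negative, the direction in which 4.32% of all genes were called. The F test across the 3 times called Acot2 and Acot4, 2 of the 8, against 8.46% of all genes. Without knockout ZT8 replicate 3 both counts were 5 of 8, with Acot1 and Acot13 added to the first and Acot1, Acot7 and Acot13 to the second. Acot3 and Acot5 were picked for a change of this kind, and Acot4 varied with Acot3 inside the groups (Pearson's r = 0.94). Acot2 varied with the picked genes too (r = 0.67 with Acot3 and 0.72 with Acot5), as did Acot1 (r = 0.49 and 0.83). The calls of Acot4, Acot2 and Acot1 are therefore not independent of that choice, and nothing particular to the family is read from these counts either.

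**Figure D1:**
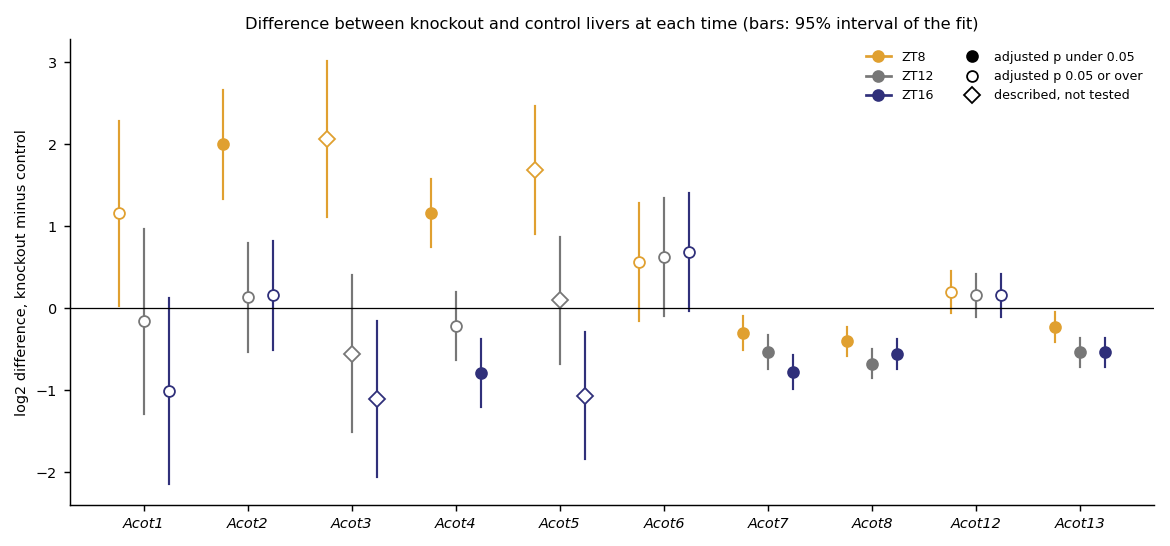
Log2 difference between knockout and control (y axis, points with 95% intervals, 6 mice per group) for the 10 genes at ZT8, ZT12 and ZT16; filled points passed an adjusted p of 0.05 and diamonds mark Acot3 and Acot5, which were described and not tested. Acot2 and Acot4 lie above 0 at ZT8 (2.00 and 1.16), Acot4 lies below 0 at ZT16 (-0.79), and Acot7, Acot8 and Acot13 lie below 0 at all 3 times.

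Acot2, the mitochondrial thioesterase for long-chain acyl-CoA, differed between the genotypes at ZT8 and was called at neither later time. At ZT8 its level was -1.13 to -0.08 in the controls (median -0.90) and 0.40 to 3.14 in the knockouts (median 0.98). At ZT12 it was -1.58 to 0.28 (median -1.07) in the controls and -1.51 to -0.34 (median -0.87) in the knockouts. At ZT16 the controls ran from -0.75 to 0.36 (median -0.53) and the knockouts from -0.88 to 0.76 (median -0.47). Every ZT8 knockout was above every ZT8 control, and at the later times the genotypes overlapped over most of their range. The difference at ZT8 was 2.00 on the log2 scale (SE 0.33, adjusted p = 1.5e-05, limma), a 4.00-fold higher signal, and was 1.49 to 2.63 within the 3 wash batches. The later differences were 0.13 at ZT12 (95% interval -0.53 to 0.80, adjusted p = 0.77) and 0.16 at ZT16 (95% interval -0.51 to 0.82, adjusted p = 0.74). The genotype effect at ZT16 was 1.84 lower than at ZT8 (SE 0.46, adjusted p = 0.0086), and the F test gave an adjusted p of 0.0090. One liver, knockout ZT8 replicate 2, stood at 3.14 where the other 5 ended at 1.35.

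Acot1, the cytosolic long-chain enzyme next to Acot2, had the widest single group of the family, the ZT8 knockouts. At ZT8 the controls lay between 2.23 and 3.17 (median 2.81) and the knockouts between 0.46 and 5.97 (median 4.40). At ZT12 the ranges were 1.98 to 3.80 (median 2.64) and 0.85 to 3.89 (median 2.88). At ZT16 the controls lay between 3.99 and 4.66 (median 4.37) and the knockouts between 2.11 and 4.04 (median 3.35). The genotypes overlapped at each time. The difference of 1.16 at ZT8 (SE 0.55, adjusted p = 0.10) was not called, nor were those of -0.16 at ZT12 (SE 0.55, adjusted p = 0.84) and -1.01 at ZT16 (SE 0.55, adjusted p = 0.15). The calls at ZT8 and ZT16 changed without knockout ZT8 replicate 3, the liver at 0.46. Without it the difference was 1.87 at ZT8 (adjusted p = 0.0010) and -1.08 at ZT16 (adjusted p = 0.033), and the change between the times went from -2.17 (adjusted p = 0.080) to -2.95 (adjusted p = 0.0010). That liver is not part of the ZT16 comparison and enters it through the batch term and the spread, which all groups share in the fit. With only the ZT16 groups in the fit, the ZT16 difference was called (-1.07, adjusted p = 0.017). With array weights the differences were called at ZT8 (1.79, adjusted p = 0.00053) and ZT16 (-0.96, adjusted p = 0.038). Within the wash batches the difference was 0.38 to 2.08 at ZT8, -1.05 to 0.91 at ZT12 and -1.36 to -0.89 at ZT16.

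Acot4, the peroxisomal enzyme for succinyl-CoA and related dicarboxylic acyl-CoAs, was the tested member whose genotype difference changed sign with both sides called. At ZT8 its level was -0.14 to 1.12 in the controls (median 0.45) and 0.86 to 2.38 in the knockouts (median 1.68). The ZT12 ranges were 0.74 to 1.82 (median 0.93) and 0.45 to 1.39 (median 0.78). At ZT16 they were 0.93 to 1.52 (median 1.23) and 0.24 to 0.77 (median 0.35). The controls climbed from ZT8 to ZT16 while the knockouts fell, so that by ZT16 every knockout lay below every control. The difference was 1.16 at ZT8 (SE 0.20, adjusted p = 4.1e-05), -0.22 at ZT12 (SE 0.20, adjusted p = 0.41) and -0.79 at ZT16 (SE 0.20, adjusted p = 0.0025). As folds, Acot4 was 2.23 times the control at ZT8 and 0.578 times at ZT16. The change of the effect from ZT8 to ZT16 was -1.95 (SE 0.29, adjusted p = 4.7e-05), with an adjusted p of 0.00015 in the F test. Within wash batches the difference was 0.92 to 1.57 at ZT8 and -0.87 to -0.79 at ZT16, and without knockout ZT8 replicate 3 the ZT8 difference was 1.33.

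The second Acot4 probe (A_51_P396141, 85384162 to 85384221) was dimmer. Its differences were 1.07 at ZT8 (SE 0.24, adjusted p = 0.00081), -0.30 at ZT12 (SE 0.24, adjusted p = 0.33) and -0.97 at ZT16 (SE 0.24, adjusted p = 0.0018) in a fit of all 34678 probes, in which 33.7%, 39.3% and 37.9% of the probes were called at the 3 times. The change from ZT8 to ZT16 on that probe was -2.04 (adjusted p = 0.00021), where 8.78% of the probes were called.

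Acot3, a peroxisomal long-chain thioesterase, is described without a test. At ZT8 its brighter probe gave -1.02 to 2.37 in the controls (median 0.93) and 1.04 to 4.53 in the knockouts (median 2.82). At ZT12 the ranges were 0.60 to 2.93 (median 1.16) and -0.04 to 1.57 (median 0.71). At ZT16 they were 1.23 to 2.18 (median 1.49) and -0.08 to 0.97 (median 0.56). The knockouts were thus the higher genotype at ZT8, with overlap, and lay wholly below the controls at ZT16. Ordered by mean level the groups ran knockout ZT8, control ZT16, control ZT12, knockout ZT12, control ZT8 and knockout ZT16, and each neighbouring pair in that order overlapped. The fitted difference was 2.07 at ZT8 (SE 0.47), -0.56 at ZT12 (SE 0.47) and -1.11 at ZT16 (SE 0.47), or 4.19, 0.680 and 0.464 times the control. Within wash batches it was 1.74 to 3.00, -0.62 to -0.21 and -1.35 to -0.995. The dimmer probe gave 2.80, -0.18 and -1.46, the same signs with a larger spread (SE 0.63 at each time).

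Acot5, the peroxisomal medium-chain thioesterase, is likewise only described, and its 2 probes differed. On the brighter probe the ZT8 levels were -2.93 to -1.79 in the controls (median -2.55) and -2.86 to 0.83 in the knockouts (median -0.70). The ZT12 ranges were -3.24 to -1.02 (median -2.44) and -2.70 to -1.82 (median -2.28). At ZT16 they were -1.46 to -0.88 (median -1.17) and -2.71 to -1.65 (median -2.34). Control Acot5 was therefore low at ZT8 and ZT12 and high at ZT16, while in the knockouts it was high at ZT8 and low afterwards. By mean level the order was knockout ZT8, control ZT16, knockout ZT16, knockout ZT12, control ZT12 and control ZT8, and control ZT16 and knockout ZT16 were the only neighbours that did not overlap. The fitted differences were 1.68 at ZT8 (SE 0.38), 0.10 at ZT12 and -1.07 at ZT16 (SE 0.38). The ZT8 value was 2.12 without knockout ZT8 replicate 3, whose level of -2.86 was the lowest of its group.

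The other Acot5 probe (A_55_P2040260) gave no such pattern. All of its levels lay between -4.80 and -3.53, it was well above background on 32 of 36 arrays, and its differences were 0.11, -0.14 and -0.17 (SE 0.18 each). The mean of both probes gave 0.90 at ZT8. The Acot5 pattern therefore rests on 1 probe, and whether the difference between the probes comes from signal near background or from the transcripts they bind was not tested.

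**Figure D2:**
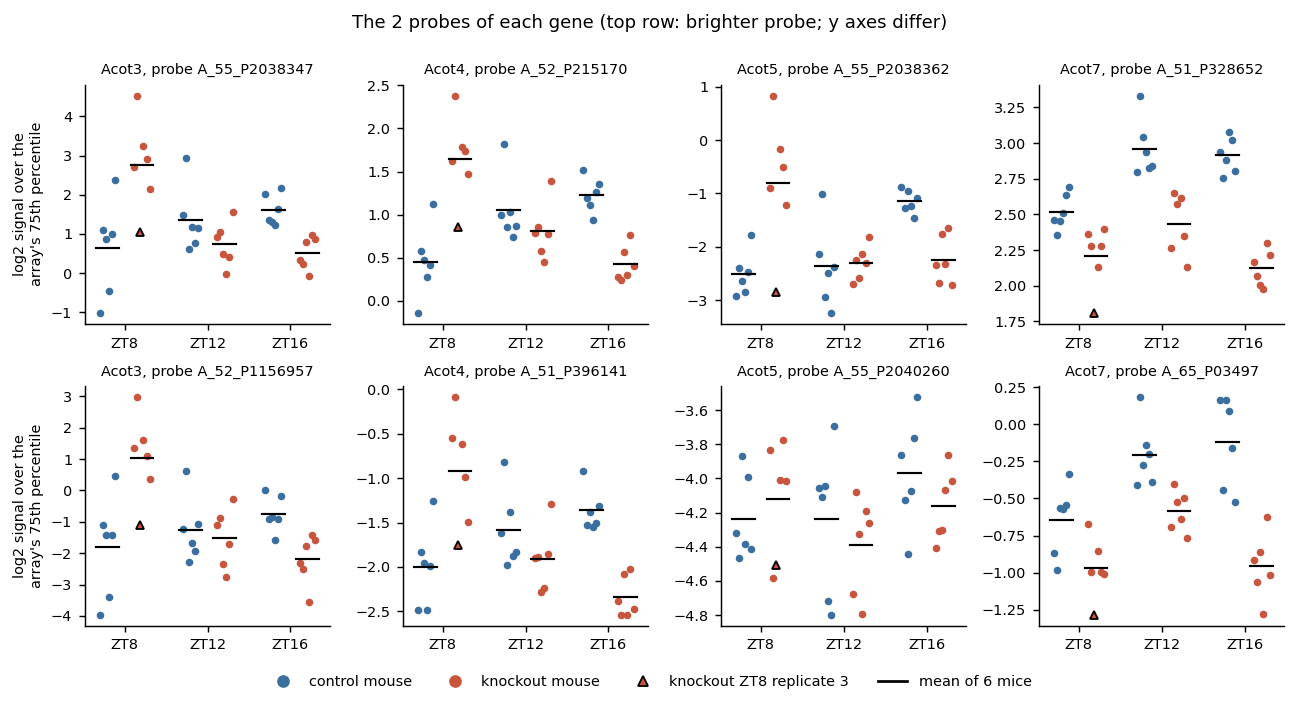
Log2 level relative to the array's 75th percentile (y axis) for both probes of Acot3, Acot4, Acot5 and Acot7, by genotype at ZT8, ZT12 and ZT16; points are mice, lines are means of 6, and the upper row holds the brighter probe of each gene. The pairs for Acot3, Acot4 and Acot7 show the same genotype order at ZT8 and ZT16, and the dimmer Acot5 probe stays between -4.80 and -3.53.

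Acot6, at the far end of the cluster, encodes a peroxisomal enzyme for branched-chain acyl-CoA. Its levels lay between -4.57 and -0.79 over all mice, on a probe that was well above background on every array, and no genotype difference was called. The differences were 0.57 at ZT8 (SE 0.35, adjusted p = 0.22), 0.62 at ZT12 (SE 0.35, adjusted p = 0.16) and 0.69 at ZT16 (SE 0.35, adjusted p = 0.12). One liver, control ZT16 replicate 1, stood at -0.79 where the other 5 ended at -2.67. Without it the difference at ZT16 was 1.15 (adjusted p = 0.0010) and that at ZT12 was 0.67 (adjusted p = 0.033). Within wash batches the ZT16 difference ran from -0.49 to 1.74, and the batch at -0.49 held control ZT16 replicate 1 as 1 of its 2 controls. The other ZT16 controls all lay below the ZT16 knockouts, which ran from -2.39 to -1.53. The Acot6 differences were positive at all 3 times, and the change of the genotype effect from ZT8 to ZT16 was 0.12 (95% interval -0.90 to 1.14).

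Acot7, the cytosolic enzyme with a preference for arachidonoyl-CoA and best known from brain, was lower in the knockouts at each time. At ZT8 its level was 2.35 to 2.69 in the controls (median 2.49) and 1.81 to 2.40 in the knockouts (median 2.28). At ZT12 the ranges were 2.79 to 3.33 (median 2.89) and 2.13 to 2.65 (median 2.46). At ZT16 they were 2.76 to 3.08 (median 2.91) and 1.98 to 2.30 (median 2.12). The groups touched at ZT8 and were apart at ZT12 and ZT16. The difference was -0.31 at ZT8 (SE 0.10, adjusted p = 0.019), -0.53 at ZT12 (SE 0.10, adjusted p = 1.0e-04) and -0.78 at ZT16 (SE 0.10, adjusted p = 3.9e-07), which leaves 0.584 of the control signal at ZT16. Within wash batches the difference was -0.45 to -0.18, -0.95 to -0.39 and -0.93 to -0.68. The ZT8 call was lost without knockout ZT8 replicate 3 (-0.23, adjusted p = 0.070), control ZT8 replicate 5 (-0.27, adjusted p = 0.055) or control ZT8 replicate 6 (-0.27, adjusted p = 0.054).

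The Acot7 difference widened from ZT8 to ZT16 by -0.47 (SE 0.14, adjusted p = 0.034), a call that 13 of the 36 single left-out arrays ended, with adjusted p up to 0.073, while the F test gave 0.090. The second Acot7 probe (A_65_P03497) gave -0.31 (adjusted p = 0.056), -0.39 (adjusted p = 0.014) and -0.82 (adjusted p = 6.3e-06), and -0.51 (adjusted p = 0.076) for the change.

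Acot8, a peroxisomal thioesterase of broad chain length, was lower in the knockouts at all 3 times, and these calls held in every alternative setting and with any 1 array left out. At ZT8 its level was 2.95 to 3.25 in the controls (median 3.00) and 2.28 to 3.00 in the knockouts (median 2.64). The ZT12 ranges were 3.02 to 3.31 (median 3.16) and 2.26 to 2.66 (median 2.47). At ZT16 they were 2.96 to 3.22 (median 3.11) and 2.36 to 2.66 (median 2.57). Every knockout lay below every control at ZT12 and ZT16. The difference was -0.40 (SE 0.09, adjusted p = 0.00052), -0.68 (adjusted p = 2.3e-07) and -0.56 (adjusted p = 6.1e-06). Its change between ZT8 and ZT16 was -0.16 (95% interval -0.41 to 0.09, adjusted p = 0.50).

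Acot13, a long-chain thioesterase found at mitochondria, was lower in the knockouts at all 3 times, with a ZT8 call that did not hold without single arrays or under other settings. At ZT8 its level was 6.11 to 6.31 in the controls (median 6.22) and 5.55 to 6.24 in the knockouts (median 6.01). At ZT12 the ranges were 6.27 to 6.72 (median 6.45) and 5.68 to 6.04 (median 5.93). At ZT16 they were 6.24 to 6.42 (median 6.37) and 5.67 to 5.97 (median 5.78). The genotypes were apart at ZT12 and ZT16 and overlapped at ZT8. The difference was -0.23 at ZT8 (SE 0.09, adjusted p = 0.044), -0.54 at ZT12 (SE 0.09, adjusted p = 1.2e-05) and -0.54 at ZT16 (SE 0.09, adjusted p = 1.4e-05), a fall to 0.688 of the control signal at the later times. The ZT8 call was lost without any 1 of 6 arrays: -0.14 (adjusted p = 0.18) without knockout ZT8 replicate 3, and -0.20 to -0.23 (adjusted p 0.060 to 0.093) without knockout replicate 2 or 4 or control replicate 3, 5 or 6 of ZT8. It was also lost with no filter on dim probes (adjusted p = 0.081), with only the groups compared in the fit (adjusted p = 0.14), with no wash batch term (adjusted p = 0.052), with array weights (adjusted p = 0.063) and with the replicate block (adjusted p = 0.061). Within the wash batches the difference was -0.43 to -0.09 at ZT8 and -0.90 to -0.35 at the later times.

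Acot12, the cytosolic acetyl-CoA hydrolase of liver, was the member outside the cluster with no called genotype difference. Its levels lay between 2.80 and 3.77 over all mice. The differences were 0.20 at ZT8 (SE 0.13, adjusted p = 0.24), 0.16 at ZT12 (SE 0.13, adjusted p = 0.33) and 0.16 at ZT16 (SE 0.13, adjusted p = 0.34). Its sign was opposite to that of Acot7, Acot8 and Acot13, and the upper ends of the 95% intervals were 0.46, 0.42 and 0.42. The ZT8 value rested on knockout ZT8 replicate 3, at 2.80 where the other 5 knockouts lay between 3.56 and 3.77, and without it the difference was 0.34 (adjusted p = 0.011). On the authors' quantile-normalized table Acot12 passed at the later times, with 0.31 at ZT12 (adjusted p = 0.026) and a difference of 0.29 at ZT16 (adjusted p = 0.038).

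**Figure D3:**
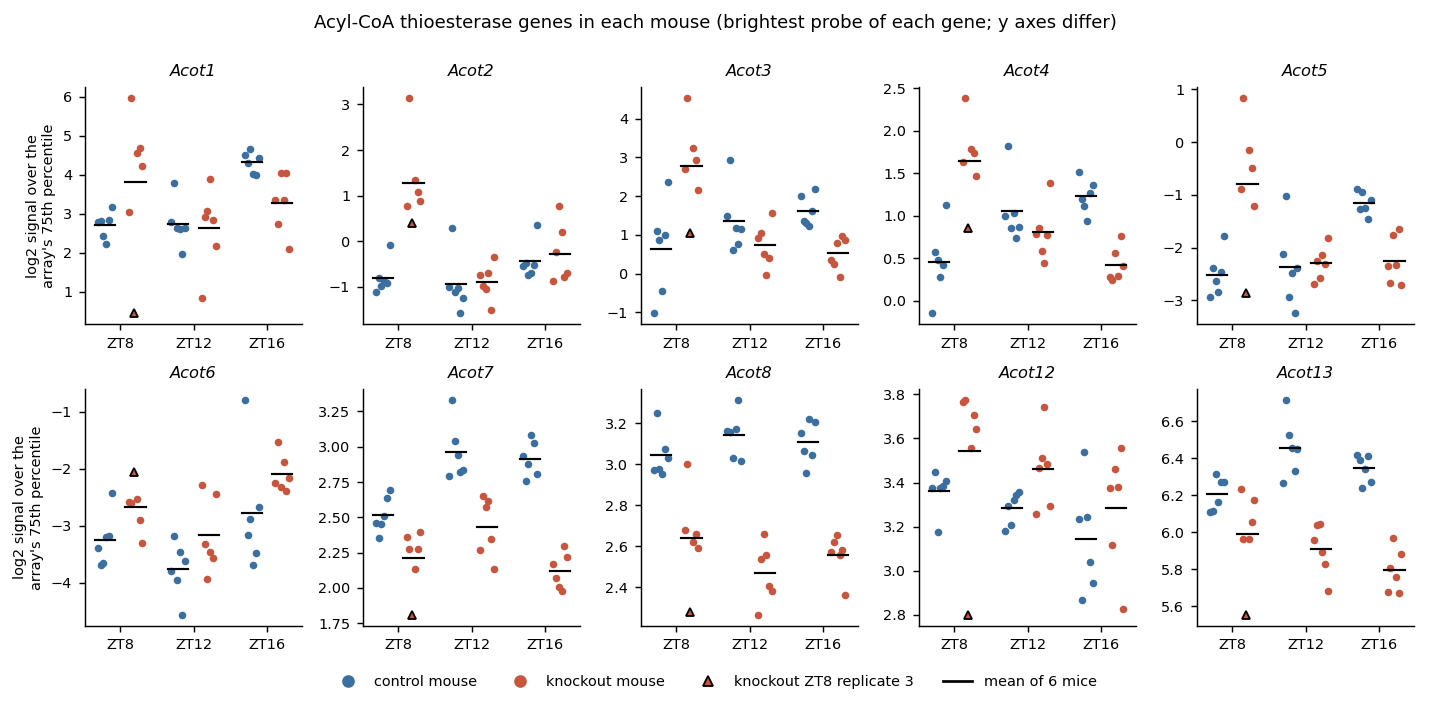
Log2 level relative to the array's 75th percentile (y axis) of each of the 10 genes at ZT8, ZT12 and ZT16, in control and knockout livers; points are mice, lines are means of 6, and the triangle is knockout ZT8 replicate 3. Control means of Acot1 to Acot6 are highest at ZT16. Knockout means of Acot1 to Acot5, Acot8, Acot12 and Acot13 are highest at ZT8. The genotypes of Acot7, Acot8 and Acot13 are apart at ZT12 and ZT16.

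Time of day was compared within each genotype. In the controls Acot4 and Acot7 rose from ZT8 to ZT12, by 0.60 (adjusted p = 0.042) and 0.44 (adjusted p = 0.0026), which is 2 of 8 where 14.8% of all genes were called. From ZT8 to ZT16 the controls had Acot1 (1.57, adjusted p = 0.034), Acot4 (0.76, adjusted p = 0.0051) and Acot7 (0.38, adjusted p = 0.0052) higher, 3 of 8 against 26.6%. No member passed between ZT12 and ZT16 in the controls, where 3.62% of genes were called by limma, and 2 of 8 had an unadjusted p under 0.05 (Acot1 and Acot6). One member, Acot1, passed there without knockout ZT8 replicate 3 (1.61, adjusted p = 0.020). The control rise of Acot1 lost its call without any 1 of 7 arrays (adjusted p up to 0.074), and that of Acot4 from ZT8 to ZT12 without any 1 of 9 (adjusted p up to 0.14).

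In the knockouts 2 genes of the cluster fell after ZT8. Acot2 fell by 2.02 from ZT8 to ZT12 (adjusted p = 0.00011) and Acot4 by 0.78 (adjusted p = 0.011), 2 of 8 where 13.2% of genes were called. From ZT8 to ZT16 they fell by 1.47 (adjusted p = 0.00075) and 1.19 (adjusted p = 3.5e-05), 2 of 8 against 28.9%. Between ZT12 and ZT16 Acot6 rose by 1.05 (adjusted p = 0.046) and Acot7 fell by 0.31 (adjusted p = 0.043), 2 of 8 against 12.6%, and the Acot6 call was lost with any of 24 single arrays left out (adjusted p up to 0.14) and the Acot7 call with any of 7 (adjusted p up to 0.13). Without knockout ZT8 replicate 3 the counts were 4 from ZT8 to ZT12, with Acot1 (-2.02, adjusted p = 0.0014) and Acot8 (-0.27, adjusted p = 0.017) added, and 5 from ZT8 to ZT16, with Acot1 (-1.31, adjusted p = 0.019), Acot12 (-0.42, adjusted p = 0.0025) and Acot13 (-0.27, adjusted p = 0.0071) added. These comparisons share their ZT8, ZT12 and ZT16 groups with each other and with the genotype comparisons.

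The first 5 genes of the cluster also varied together from liver to liver inside a group. Knockout ZT8 replicate 2 was the highest of its group for all of Acot1 (5.97), Acot2 (3.14), Acot3 (4.53), Acot4 (2.38) and Acot5 (0.83). Control ZT8 replicate 6 was the highest of its group for the same 5 genes (3.17, -0.08, 2.37, 1.12 and -1.79), and so was control ZT12 replicate 2 (3.80, 0.28, 2.93, 1.82 and -1.02). After each group's mean was subtracted, the 10 pairs within Acot1 to Acot5 had Pearson's r from 0.49 to 0.94 over the 36 arrays, with a median of 0.71. The closest pair was Acot3 and Acot4, at 0.94.

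The r of Acot6 with Acot1 to Acot5 ran from -0.18 to 0.35 over the 36 arrays. Without knockout ZT8 replicate 3 it ran from -0.09 to 0.47, which overlaps the 0.34 to 0.93 of the pairs within Acot1 to Acot5. Acot1 also had an r of 0.74 with Acot12 and 0.67 with Acot8, both above its 0.49 with Acot3. The values for Acot5 come from its brighter probe, and the other (A_55_P2040260) had r from -0.08 to 0.21 with Acot1 to Acot4. Over the 25 pairs of 1 gene from Acot1 to Acot5 and 1 other member the median r was 0.34, and over the 10 pairs of other members 0.28. Without knockout ZT8 replicate 3 the medians were 0.70, 0.20 and 0.01. Outside the cluster Acot7 and Acot13, on different chromosomes, had an r of 0.69, and 0.60 without that liver. These correlations describe the libraries, whose points share array depth and wash batch, and they do not separate variation between livers from signal shared between paralog probes.

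**Figure D4:**
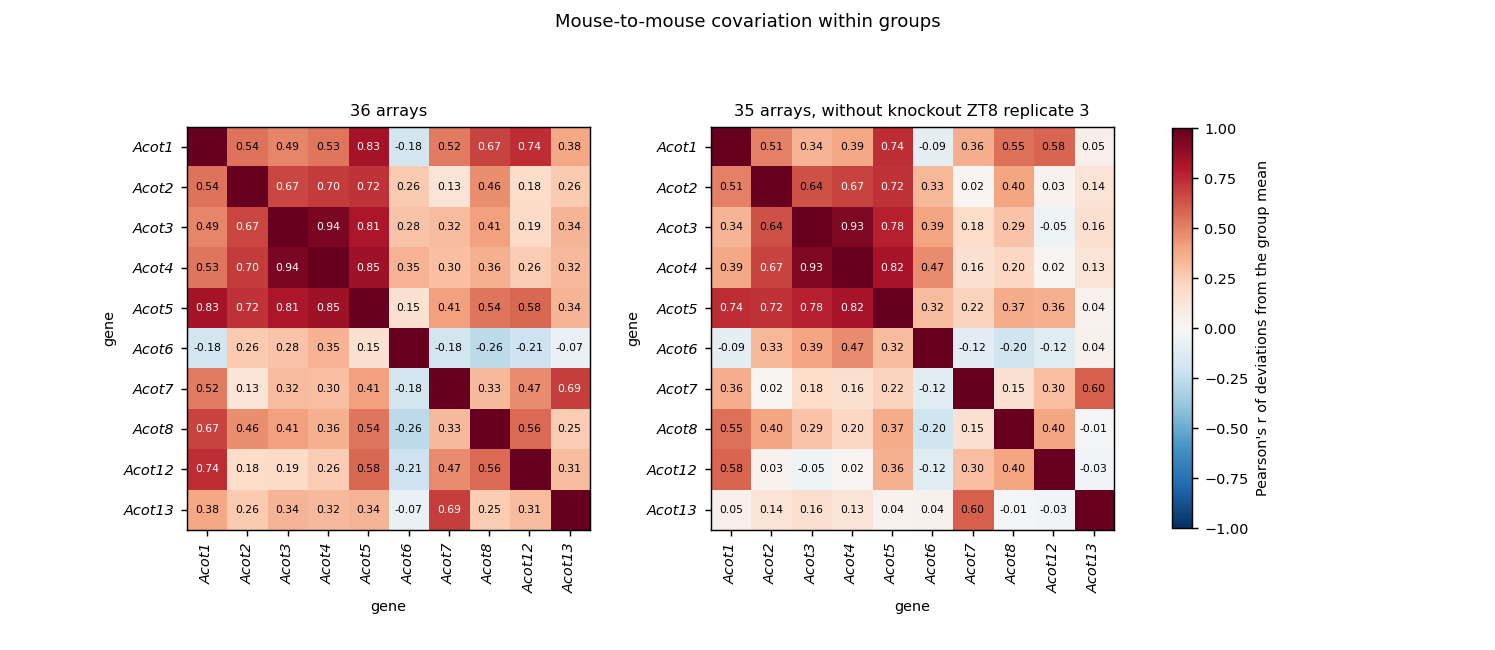
Pearson's r of log2 levels after subtraction of the group mean, for each pair of the 10 genes, over 36 arrays (left) and over 35 arrays without knockout ZT8 replicate 3 (right); the colour scale runs from -1 to 1. The block from Acot1 to Acot5 has r from 0.49 to 0.94 on the left, and Acot6 has r from -0.18 to 0.35 with those genes; on the right the ranges are 0.34 to 0.93 and -0.09 to 0.47.

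Among all 23054 genes, the profile most like Acot3 over the 36 arrays was its neighbour Acot4 (r = 0.945, Spearman's rho = 0.937). Next came Gm23952 (r = 0.906), Gm32618 (r = 0.894), Acot5 (r = 0.847) and Rab30 (r = 0.786), a small GTPase. For Acot5 the closest were Acot4 (r = 0.850), Acot3 (r = 0.847), Acot1 (r = 0.836), Gm32618 (r = 0.813) and Hsdl2 (r = 0.784), a peroxisomal hydroxysteroid dehydrogenase-like protein. Members thus made up 2 of the 5 nearest profiles of Acot3 and 3 of the 5 nearest of Acot5. These genes were chosen for their likeness to Acot3 and Acot5, so the signs of their genotype differences follow from the choice and are given as a description. The differences were 1.33, -0.18 and -0.64 for Gm23952, 1.18, -0.12 and -0.60 for Gm32618, and 1.76, -0.42 and -0.21 for Rab30 at ZT8, ZT12 and ZT16. Hsdl2 had 0.70 at ZT8 and 0.04 and 0.03 later.

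The genes around the thioesterases were counted from lists of known pathway members, beside the backgrounds of 35.4%, 42.2% and 39.9%. Of 31 tested PPARalpha targets and fatty acid oxidation genes, 16 were called at ZT8 (10 higher, 6 lower), 21 at ZT12 (5 higher, 16 lower) and 17 at ZT16 (4 higher, 13 lower). The median of the list was 0.07, -0.30 and -0.20. The change from ZT8 to ZT16 was called for 5 of the 31, where 9.75% of all genes were called, and all 5 were downward, against 4.32%. Pex11a, which promotes the division of peroxisomes, had differences of -0.43 (adjusted p = 0.084), -1.47 (adjusted p = 4.9e-07) and -1.81 (adjusted p = 1.3e-08), and its effect changed by -1.38 (adjusted p = 0.0013). It was lower in the knockouts at the later times and not called at ZT8, where 10 of the 16 called genes of the list were higher. The genes of the list named here were taken by smallest p, and all had negative differences at ZT8. Abcd3, a transporter of fatty acids into the peroxisome, was lower throughout (-0.51, -1.27 and -1.26), as was Slc25a20, the mitochondrial carnitine-acylcarnitine carrier (-0.33, -0.72 and -0.97). Cpt2, the inner carnitine palmitoyltransferase, had -0.20 at ZT8 (adjusted p = 0.069) and was lower at ZT12 and ZT16 (-0.68 and -0.46).

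The synthetases, which make the substrate of the thioesterases, were mostly lower where they were called. Of 20 tested, 12, 13 and 12 passed at ZT8, ZT12 and ZT16, and 9, 10 and 9 of those were lower. Acss2, which makes acetyl-CoA in the cytosol, had differences of -2.14, -1.88 and -2.07, and Acsm2, for medium-chain acids, -2.42, -2.51 and -3.05. Acsl5, for long-chain acids, had -0.80, -0.71 and -1.11, and Aacs, which activates acetoacetate, had -1.39, -1.88 and -2.33. All of these differences were called. The Acsm2 probe was well above background on 4 of the 6 knockout arrays at ZT12 and on 2 of the 6 at ZT16. Its later differences therefore rest partly on signal near background.

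Thioesterases and acyltransferases that share the enzyme folds but are not among the 10 genes gave 3, 6 and 6 calls of 10 tested, with 0, 2 and 1 of them higher. Acot11, a fatty acyl-CoA thioesterase also called Them1, was lower at each time by a larger margin than any called member: -2.62, -3.29 and -2.44 (adjusted p = 1.1e-06, 1.7e-08 and 3.0e-06). Acot9, a mitochondrial thioesterase, was 0.22 at ZT8 (adjusted p = 0.26) and higher later, by 0.56 (adjusted p = 0.0026) and 0.61 (adjusted p = 0.0012). Baat, which joins bile acids to amino acids, had -0.71, -0.70 and -0.32, all called. Acnat1, a peroxisomal acyltransferase, had -0.59 and -0.60, both called, and -0.15 at ZT16 (adjusted p = 0.47). No gene of this list passed the test of the change from ZT8 to ZT16.

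Coenzyme A itself is the other product of a thioesterase. Of 11 tested genes for its synthesis and breakdown, 6, 6 and 3 were called at ZT8, ZT12 and ZT16, with 2 higher at ZT8 and none higher later. Nudt7, the peroxisomal CoA hydrolase, had differences of -2.44, -2.63 and -2.62 (adjusted p = 1.5e-09, 2.8e-10 and 2.8e-10). Nudt8, its mitochondrial relative, had -0.57, -0.74 and -0.66, and Pank3, a pantothenate kinase that starts CoA synthesis, had -0.22, -0.31 and -0.76, all called. Ppcs, the next enzyme of that synthesis, had -0.12 (adjusted p = 0.40), -0.61 (called) and -0.25 (adjusted p = 0.062).

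Of 13 acyl-CoA binding proteins and carnitine acyltransferases, 9, 7 and 10 were called, with 2, 2 and 4 higher. Dbi, the acyl-CoA binding protein, had -0.81, -1.11 and -0.62, Acbd4, a related binding protein, had -0.66, -0.81 and -0.39, and Fabp2, a fatty acid binding protein best known from the gut, had -3.16, -3.66 and -3.33, all called. Crot, which makes acylcarnitines in the peroxisome, had differences opposite in sign to those of Acot4. Its difference was -0.33 at ZT8 (adjusted p = 0.031), 0.38 at ZT12 (SE 0.12, adjusted p = 0.010) and 1.04 at ZT16 (SE 0.12, adjusted p = 3.2e-08), and the change from ZT8 to ZT16 was 1.37 (adjusted p = 3.6e-06).

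Markers of other cell types were counted beside the same backgrounds of 35.4%, 42.2% and 39.9%. Of 7 Kupffer cell and macrophage markers, 2, 5 and 3 were higher in the knockouts at ZT8, ZT12 and ZT16, and their summed level was 46.1 to 113 in the ZT8 controls and 66.8 to 284 in the ZT8 knockouts. Endothelial markers had 0, 5 and 4 of 6 higher, and stellate cell markers 0, 3 and 3 of 7 higher. Hepatocyte markers had 2, 4 and 2 of 8 called, with 2 higher at ZT12 and the others lower. Their summed level was 3838 to 4620 in the ZT8 controls and 2687 to 4162 in the ZT8 knockouts. At ZT12 it was 4395 to 4747 in the controls and 3215 to 4059 in the knockouts. The ZT16 sums were 4308 to 5100 and 3609 to 3875, so the sums of the genotypes were apart at both later times. These sums add unlogged signals, so the brightest markers weigh most in them. The median log2 difference of the hepatocyte markers was -0.07, -0.04 and -0.19 at ZT8, ZT12 and ZT16. Of 4 red cell markers 1 was lower at ZT8, and 2 were higher and 1 lower at each later time. The 3 tested exocrine pancreas genes (of 6 listed) were lower in the knockouts at all 3 times, with a summed level of 9.85 to 15.6 in the knockouts and 25.0 to 57.2 in the controls. Bile duct markers had 0, 1 and 1 of 5 called, fat markers 0, 2 and 0 of 5, brown fat markers 1, 1 and 1 of 3, and kidney markers 1, 0 and 0 of 2. The part of these marker differences in the lower Acot7, Acot8 and Acot13 signals, and in the Acot2 and Acot4 differences, was not tested.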

How the data were processed

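RNA from 36 mouse livers (200 ng each) was labelled with Cy3 and hybridised to 1-colour Agilent SurePrint G3 mouse arrays, per the labels' protocols. The deposited scanner intensities had been background-subtracted by Agilent Feature Extraction 10.10.1.1, per the file headers and the submitters' processing notes. The authors' processed table, used as an alternative, holds deposited log2 values of 32801 probes, 14 of them member probes. Its columns share one set of sorted values, as quantile normalization leaves them, and its background correction is not given in the sources used here. Flags of other kinds in the deposited files marked spots as outliers, saturated or well above background, per the file headers.

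Here log2 intensity was scaled to each array's 75th percentile, outlier spots were left out and spots of a probe averaged. Probes well above background on at least 6 of 36 arrays were kept, 93 with a missing value were dropped, and 34678 remained. The brightest probe stood for each gene. limma 3.58.1 (R 4.3.3) fitted 6 group means with wash batch as a covariate, with 28 residual degrees of freedom, and Benjamini-Hochberg adjustment over 23054 genes at 0.05. The fit was tested on simulated data. Alternatives changed the background correction, scaling, filter, probe choice, arrays, batch terms and weights. The number of arrays per group limits the precision. The members and the pathway and marker lists were chosen with earlier results of these data known; named genes were all members, up to 4 genes per pathway list with the smallest p in a genotype comparison, and the 5 profiles most like Acot3 and Acot5. The labels number the replicates without naming the animals, so p-values measure the spread between these samples.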

Additional observations from a re-analysis of the deposited data

Results flagged for a closer look

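In 9 of the 60 groups searched (6 groups for each of the 10 genes), 1 liver stood apart from the other 5 by Dixon's criterion, which chance meets in about 1 group in 20. Acot2 held 4 of them: control ZT8 replicate 6 at -0.084 (others -1.13 to -0.81), control ZT12 replicate 2 at 0.28 (others -1.58 to -1.01), control ZT16 replicate 6 at 0.36 (others -0.75 to -0.49) and knockout ZT8 replicate 2 at 3.14 (others 0.40 to 1.35). Each was the highest of its group. Acot4 had control ZT12 replicate 2 at 1.82 (others 0.74 to 1.03), the same liver as for Acot2. Acot6 had control ZT16 replicate 1 at -0.79 (others -3.68 to -2.67).

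The other 3 livers stood low. Acot12 had control ZT8 replicate 3 at 3.18 (others 3.37 to 3.45) and knockout ZT8 replicate 3 at 2.80 (others 3.56 to 3.77), and Acot8 had knockout ZT16 replicate 6 at 2.36 (others 2.56 to 2.66). The wash batch is a term of the fit, and what set these livers apart was not tested.

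The genotype effect differed between ZT16 and ZT8 by a test of the difference for 3 of the 8 tested genes: Acot4 by -1.95, Acot2 by -1.84 and Acot7 by -0.47 on the log2 scale. Acot4 and Acot2 varied inside the groups with Acot3 and Acot5, which were picked for such a change, so their calls are not independent of that choice.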

How the results depend on the processing

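No called difference of a member changed sign under any alternative. Counts of the 8 tested members called stayed within 1.5 times the reported count in 104 comparisons under other settings and moved further in 16. With 1 array left out they stayed so in 358 and moved further in 38. ZT12 against ZT8 in the controls (2) gave 1 with no filter on dim probes, with the mean of all probes and with only the groups compared. ZT16 against ZT12 in the controls (0) gave 1 with only the groups compared and with array weights. In the knockouts, ZT12 against ZT8 (2) gave 1 with only the groups compared and 4 with array weights. ZT16 against ZT12 (2) gave 1 with quantile normalization, the authors' processed table, the mean of all probes, only the groups compared and the replicate block, and 0 with no filter. ZT16 against ZT8 (2) gave 5 with array weights, as did the change of the genotype effect from ZT8 to ZT16 (3) and the F test (2).

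In the fits that left out 1 array, the genotype comparison at ZT8 ran from 3 (without control ZT8 replicate 5 or 6) to 5, at ZT12 from 3 to 4 and at ZT16 from 4 to 5. The control times ran from 1 to 3 (ZT12 against ZT8), 0 to 1 (ZT16 against ZT12) and 2 to 3 (ZT16 against ZT8), and the knockout times from 2 to 4, 0 to 2 and 2 to 5. The change of the genotype effect and the F test both ran from 2 to 5, with the highs of 5 without knockout ZT8 replicate 3. That array also gave the knockout highs of 4 and 5 and the control value of 1 between ZT12 and ZT16. The control count between ZT8 and ZT12 was 1 without replicate 1, 2, 4 or 5 of ZT8 or replicate 2, 3 or 4 of ZT12. The knockout count between ZT12 and ZT16 was 0 without replicate 2, 3 or 4 of ZT12 or replicate 1, 2, 3 or 4 of ZT16, and 1 without most of the other arrays.

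The labels number the mice 1 to 6 in each group. Same-numbered mice did not deviate together (median r = -0.0045, range -0.34 to 0.20, and 8 of 36 arrays correlated best with their own number), so the number is not taken as a pairing. With the replicate block the Acot13 call at ZT8 (adjusted p = 0.061) and the Acot7 call between ZT12 and ZT16 in the knockouts (adjusted p = 0.072) were lost.

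Over all genes, the counts called that moved by more than 1.5 times were ZT12 against ZT8 in the knockouts (3048, or 618 with only the groups compared), ZT16 against ZT12 in the controls (834, or 328) and in the knockouts (2900, or 1684), ZT16 against ZT8 in the knockouts (6662, or 4362), the F test (1951, or 1274 with no filter and 3711 with array weights) and the change of the effect (2248, or 4034 with array weights). Dim probes limit Acot5 and Acot6: with normexp background correction the Acot5 change from ZT8 to ZT16 was -1.85 instead of -2.75. Under other settings, and apart from the leave-one-out fits, 22 member values lost a call and 25 gained one. A further 1236 did neither, and these include values that held no call to lose or gain. Those are the values of Acot3 and Acot5 and the values within single wash batches. Another 27 such untested values moved by more than the spread. The cause was not tested.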
